A study of Drosophila melanogaster with 31 samples.

Results

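The members described here are the H3K9me3 peaks on the heterochromatin sequences of the dm3 build of the *Drosophila melanogaster* genome, in cells depleted of Nxf2 and in cells depleted of Panx. They were chosen by sequence name alone, as every deposited peak whose sequence name ends in Het (2LHet, 2RHet, 3LHet, 3RHet, XHet and YHet). The rule found 1384 of 3497 peaks in the Nxf2-KD list and 1505 of 4023 peaks in the Panx-KD list, together 2889 of 7520. The series holds 31 samples of ovarian somatic cells (OSC), a cultured line from the follicle cells of the ovary grown at 26 °C. The chromatin immunoprecipitation used here had 2 samples of cells transfected with small interfering RNA against Nxf2 (Nxf2-KD) and 2 of cells treated likewise against Panx (Panx-KD), with 1 input sample for each knockdown. The antibody was anti-H3K9me3 (Active motif). The labels name no transgene for either group, and the 31 samples include no H3K9me3 sample of EGFP-KD control cells. Values therefore compare the 2 knockdowns with each other and do not measure a change from undepleted cells.

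H3K9me3 is the histone mark that the chromodomain protein HP1 binds, and it packs the repeat-rich DNA around centromeres into constitutive heterochromatin. In the follicle-cell lineage Piwi, guided by piRNAs, also directs this mark to transposon copies outside the centromere region. Panx is a nuclear protein required for that Piwi-guided silencing, and Nxf2, a relative of the general mRNA exporter Nxf1, acts in a complex with Panx. The Het sequences are assembled scaffolds of centromere-proximal DNA assigned to a chromosome arm, made largely of transposon remnants between sparse genes. No genome sequence or gene map of the dm3 build was used, so the peaks are given by position and no gene, element or base sequence is assigned to them.

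Each knockdown has 1 deposited list, merged over replicates per its name, so that no value below has an error between samples and no p-value compares the conditions. Peaks of 1 list share their libraries and are not replicates. The number of reads behind each list is unknown. Each peak's score is the authors' own, from their peak caller, and scores are used to describe and rank peaks within a list. Where scores of both lists are printed for 1 place, their sizes are not to be compared. The Spearman coefficient of score across pairs uses ranks only. The lowest member had a score of 50.09 in the Nxf2-KD list and 50.39 in the Panx-KD list, just above the lowest score of any deposited peak, 50.01.

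Heterochromatin sequences held 39.6% of the peaks and 49.2% of the peak bases of the Nxf2-KD list, and 37.4% of the peaks and 47.6% of the peak bases of the Panx-KD list. The members covered 4550 kb in Nxf2-KD cells and 4836 kb in Panx-KD cells. Measured against the extent from base 1 to the last peak end in either list, 9227 kb in all, these were 49.3% and 52.4% of the heterochromatin sequences. The remaining sequences (the chromosome arms, X and 4) were covered to 3.94% in the Nxf2-KD list and 4.47% in the Panx-KD list. The extent is a lower limit of the true sequence lengths, so the percentages are upper limits.

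By sequence, 3RHet was covered most in both lists, 55.2% in Nxf2-KD and 58.0% in Panx-KD cells. It was followed by 3LHet with 53.0% and 55.1%, 2RHet with 48.5% and 53.1%, and 2LHet with 39.7% and 43.1%. XHet had 32.0% in Nxf2-KD and 30.7% in Panx-KD cells, and YHet only 4.20% and 4.27%. The order of the 6 sequences was therefore the same in both lists. The 4 autosomal sequences had fewer covered bases in Nxf2-KD than in Panx-KD cells, with a ratio between 0.914 (2RHet) and 0.960 (3LHet). XHet had a ratio of 1.04 and YHet of 0.985, both on few peaks. Over all members the Nxf2-KD list had 0.941 times the bases and 0.920 times the peaks of the Panx-KD list. On the other sequences these ratios were 0.882 and 0.839.

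**Figure D1:**
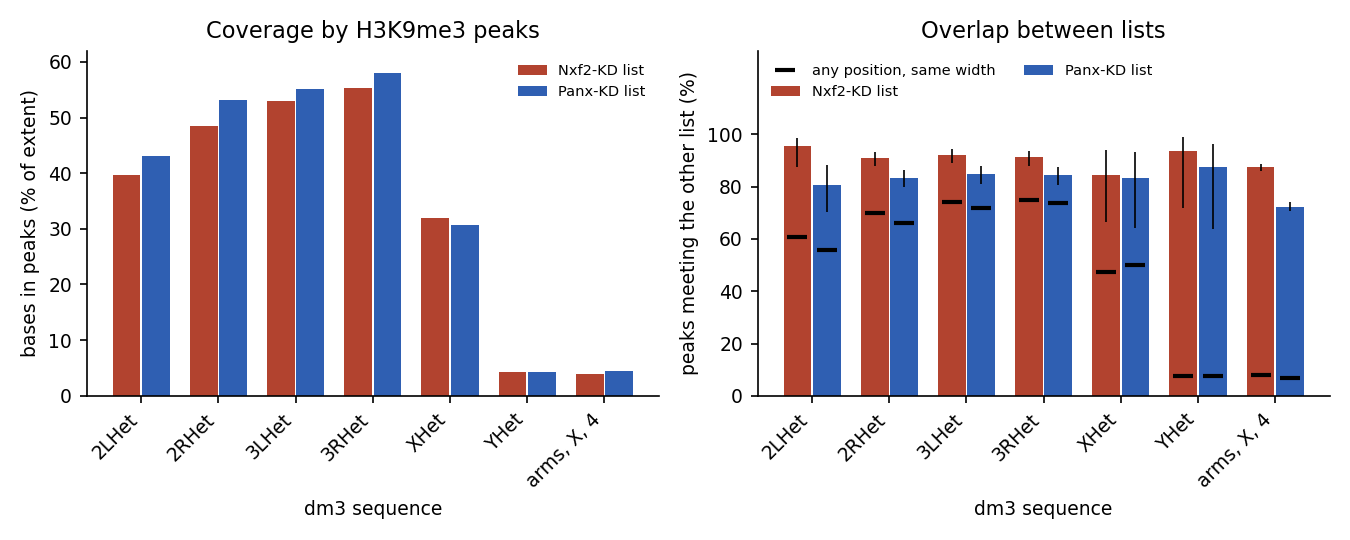
Left: share of each dm3 sequence's extent that lay in H3K9me3 peaks (%), with Nxf2-KD bars left of Panx-KD bars. Right: share of peaks that overlapped a peak of the other list (%), with 95% Wilson intervals for counting error and black dashes for a window of the same width at any position. 3RHet was covered most (55.2% in Nxf2-KD, 58.0% in Panx-KD cells), while YHet was covered like the chromosome arms, X and 4.

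Peaks on heterochromatin sequences were wider than those elsewhere in the same list. The median width was 2199 bp (quartiles 1314 and 4368 bp) for Nxf2-KD members, against 1513 bp for the other Nxf2-KD peaks. It was 2003 bp (quartiles 1156 and 4246 bp) for Panx-KD members, against 1348 bp for the other Panx-KD peaks. Widths ran from 297 to 26006 bp in the Nxf2-KD list and from 304 to 29443 bp in the Panx-KD list. Peaks of 5 kb or more made up 19.0% of the Nxf2-KD members and 19.3% of the Panx-KD members, against 8.52% and 8.94% of the other peaks of each list. The longer Nxf2-KD median did not hold for joined peaks: with peaks joined over gaps of at most 1000 bp the medians were 4508 bp in Nxf2-KD and 4540 bp in Panx-KD cells.

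The median score of the members was 164 in the Nxf2-KD list, at the 57.4th percentile of that list, and 196 in the Panx-KD list, at its 58.9th percentile. Among the sequences, 2RHet had the highest median score in both lists, 190 in Nxf2-KD and 211 in Panx-KD cells. Scores under 100 were found for 29.3% of Nxf2-KD members and 27.7% of Panx-KD members, against 42.7% and 38.4% of the other peaks. Width and score went together within a list, with a Spearman coefficient of 0.81 over the 1384 Nxf2-KD members and 0.84 over the 1505 Panx-KD members. This is a description only, since the peaks of a list share their libraries and a caller's score grows with the reads in a peak. Outside heterochromatin the same coefficients were 0.80 and 0.82.

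**Figure D2:**
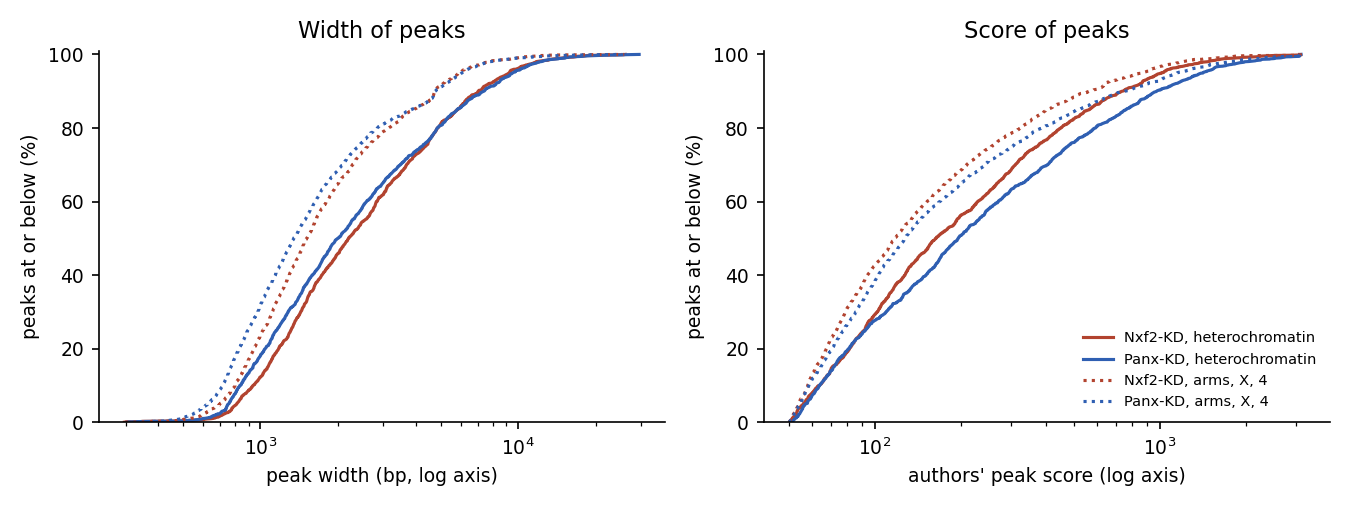
Cumulative share of peaks (%) against peak width in bp (left, log axis) and against the authors' peak score (right, log axis). Solid lines are heterochromatin sequences and dotted lines the chromosome arms, X and 4. The heterochromatin lines lie to the right of the dotted ones in both lists, with median widths of 2199 bp in Nxf2-KD and 2003 bp in Panx-KD cells.

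Of the 5 highest-scoring members of each list, 4 Nxf2-KD and 5 Panx-KD peaks overlapped the other list. Over all sequences 89.0% of Nxf2-KD and 76.7% of Panx-KD peaks did so. The Nxf2-KD peak at 2RHet:1341455-1350654 (dm3, 9200 bp) had a score of 3100 and lay wholly within a Panx-KD peak at 1341251-1351037 (9787 bp), also with a score of 3100. A score of 3100 or more was given to 3 Nxf2-KD and 7 Panx-KD members. Panx-KD members tied at 3100 stood both among the 5 highest and outside them, so score alone did not set those 5. The Nxf2-KD peak at 3LHet:1953478-1960936 scored 2510, and its Panx-KD counterpart at 1953488-1960904 scored 3100, with edges 10 and 32 bp apart. At 3LHet:533190-542518 an Nxf2-KD peak of score 3100 was covered to 99.8% by 2 Panx-KD peaks. The Nxf2-KD peak at 3LHet:1078626-1086116, of score 2887, was covered to 86.0% by a Panx-KD peak of score 1304.

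One of the highest-scoring Panx-KD places ranked low in the Nxf2-KD list. The highest-scoring Panx-KD member, at 2RHet:168159-179296 with a score of 3136, lay wholly within an Nxf2-KD peak at 168027-179376. That Nxf2-KD peak had nearly the same edges but a score of only 116, below the median of its list. On 2LHet the highest-scoring Panx-KD peak, 309322-319113 with a score of 1909, lay in a 12545 bp Nxf2-KD peak with a score of 228.

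The widest members were not the highest-scoring ones. The widest Nxf2-KD peak, 2RHet:1297018-1323023 (26006 bp), ranked 348 by score among the members with a score of 371. Its Panx-KD counterpart, 2RHet:1296625-1322928 (26304 bp), ranked 519 with a score of 338. Likewise 3RHet:1943716-1963701 (19986 bp) scored 141 in Nxf2-KD cells, and its counterpart of 20938 bp scored 490 in Panx-KD cells. At 3LHet:1397523-1419495 (21973 bp) the Nxf2-KD score was 1152, and the matching Panx-KD peak of 22038 bp scored 655. These 3 broad domains had close edges in both lists. Others among the 5 widest of each list did not: the Nxf2-KD peak at 3LHet:1481211-1506746 (25536 bp, score 139) was covered to 0.208% by Panx-KD peaks. The Panx-KD peak at 2RHet:133084-162526 (29443 bp) overlapped no Nxf2-KD peak, and the one at 2RHet:887091-912184 (25094 bp) was covered to 20.4%.

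Members stood close together. The median gap between neighbouring peaks was 979 bp in the Nxf2-KD list (quartiles 245 and 2771 bp) and 708 bp in the Panx-KD list (quartiles 170 and 2174 bp). On the other sequences it was 2643 and 1887 bp. Gaps of at most 100 bp leave neighbouring calls almost touching. They were 13.9% of the Nxf2-KD and 17.6% of the Panx-KD gaps between members, against 12.4% and 11.3% on the other sequences. Joining peaks over gaps of at most 1000 bp left 688 clusters in Nxf2-KD and 625 in Panx-KD cells, so that the list with fewer peaks had more clusters. Of these, 43 Nxf2-KD clusters and 64 Panx-KD clusters were 20 kb or longer, spanning 13.1% and 22.5% of the heterochromatin extent.

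The longest Nxf2-KD cluster, 3LHet:1481211-1529989 (48.8 kb, 5 peaks), was covered by Panx-KD peaks to only 44.1%. The next, 3LHet:853845-900382 (46.5 kb, 5 peaks), was covered to 95.8%. The longest Panx-KD cluster, 2RHet:105267-196745 (91.5 kb, 13 peaks), was covered by Nxf2-KD peaks to 54.3% and was divided among 3 Nxf2-KD clusters. The next, 3RHet:2131760-2205302 (73.5 kb, 11 peaks), was covered to 68.9%. The longest cluster of each list therefore held a stretch that the other list lacked.

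The question of the overlap is whether cells depleted of Nxf2 and cells depleted of Panx have peaks at the same heterochromatic places. Of the Nxf2-KD members 1266 (91.5%, Wilson 95% interval 89.9 to 92.8%) overlapped a Panx-KD peak by at least 1 bp, against 89.0% over all sequences. Of the Panx-KD members 1264 (84.0%, 82.0 to 85.8%) overlapped an Nxf2-KD peak, against 76.7% over all sequences. On the chromosome arms, X and 4 alone the shares were 87.4% and 72.4%. The intervals cover counting error only. Because the heterochromatin sequences are so densely covered, part of this overlap needs no common position: a window of each member's width, set at every position of the same sequence in turn, overlapped the other list at 71.0% of positions for the Nxf2-KD members and 68.5% for the Panx-KD members. Outside heterochromatin such windows overlapped at 7.81% and 6.75% of positions. These and all later shares of positions count every start, although 144 of 925 consecutive 10 kb windows on heterochromatin sequences held no peak in either list. Whether reads could be assigned there was not tested, so the distance between overlap and these shares is not read as agreement of the mark.

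At least 50% of the peak lay in the other list for 89.5% of Nxf2-KD members (86.5% over all sequences) and 79.3% of Panx-KD members (73.1% over all sequences). A reciprocal overlap of 50% with 1 peak was found for 70.6% of Nxf2-KD members (71.5% over all sequences) and 64.9% of Panx-KD members (62.2% over all sequences), close to the share over all sequences in both lists. That rule matches peaks 1 to 1, so the order of the 2 shares follows from the list sizes alone. Under the 1 bp rule, too, the numbers of overlapping members, 1266 and 1264, were almost equal.

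In bases, 4003 kb lay in both lists. This was 88.0% of the Nxf2-KD bases, in sequences of which Panx-KD peaks covered 52.4%, and 82.8% of the Panx-KD bases, in sequences of which Nxf2-KD peaks covered 49.3%. The bases in both lists were 74.3% of those in either, compared with 68.6% outside heterochromatin. By sequence this share was 77.0% on 2LHet, 73.5% on 2RHet, 75.1% on 3LHet, 74.8% on 3RHet, 63.6% on XHet and 79.7% on YHet. Dense coverage alone raises such a share, and coverage outside heterochromatin was only 3.94% in Nxf2-KD and 4.47% in Panx-KD cells. No share from coverage alone was computed, so the order of these shares does not rank how well the lists agree. Of the 548 kb in Nxf2-KD peaks alone, 57.0% lay in peaks with no counterpart and 43.0% in overhangs of overlapping peaks. Of the 833 kb in Panx-KD peaks alone, 44.0% lay in peaks with no counterpart and 56.0% in overhangs.

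Overlap differed between classes of score. Each whole list was divided by score into 5 classes of equal size. In the class of lowest scores 74.0% of 208 Nxf2-KD members overlapped the other list (any position, 62.6%), as did 54.9% of 246 Panx-KD members (any position, 60.2%). The weakest Panx-KD members thus overlapped Nxf2-KD peaks no more often than windows of their width at any position. In the class of highest scores 95.1% of 346 Nxf2-KD and 98.7% of 382 Panx-KD members overlapped, against 78.8% and 78.0% of positions. In the Nxf2-KD list the share did not climb steadily, since the fourth class had 96.5%. On the other sequences the lowest class overlapped for 64.6% of 492 Nxf2-KD and 33.9% of 560 Panx-KD peaks. The highest class there overlapped for 99.4% of 354 Nxf2-KD and 97.9% of 423 Panx-KD peaks.

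**Figure D3:**
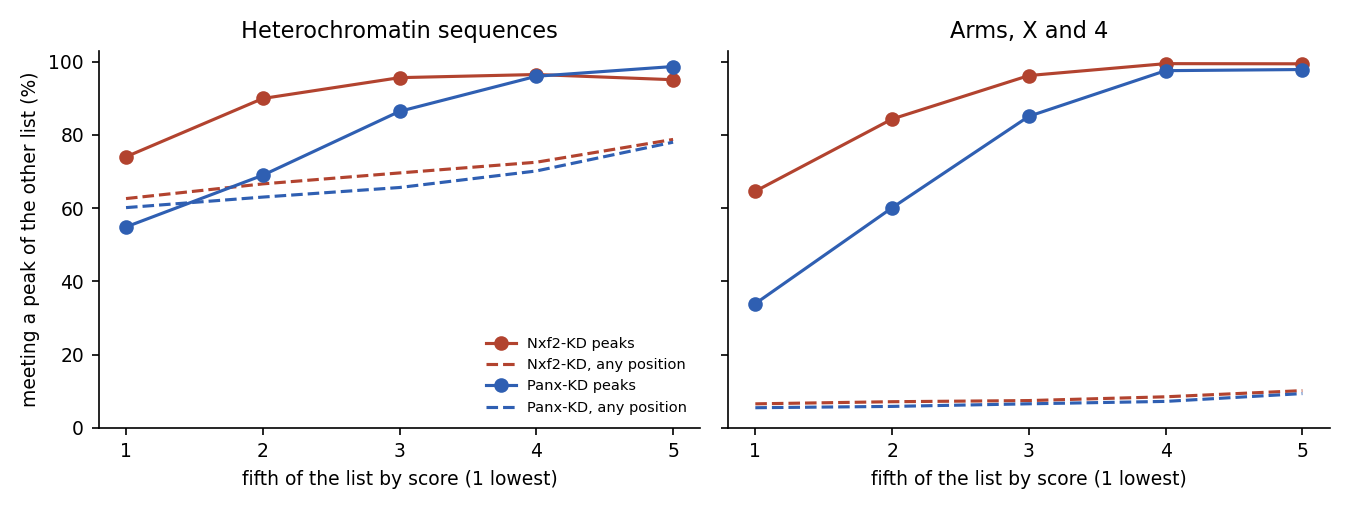
Share of peaks overlapping the other list (%, points) in 5 classes of equal size by the authors' score within the list, on heterochromatin sequences (left) and on the chromosome arms, X and 4 (right). Dashed lines give the share of positions at which a window of the same width overlaps the other list. On heterochromatin the Panx-KD points run from 54.9% in class 1, below the dashed line, to 98.7% in class 5.

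The 118 Nxf2-KD members without a counterpart had a median width of 1292 bp and a median score of 76.6, against 2317 bp and 178 for the 1266 that overlapped. The 241 Panx-KD members without one had a median width of 1091 bp and a median score of 76.3, against 2375 bp and 245. Of these, 40 Nxf2-KD and 97 Panx-KD peaks lay under 500 bp from a peak of the other list, a distance chosen after the lists were seen. With such neighbours counted as overlaps the shares were 94.4% of Nxf2-KD members (92.3% over all sequences) and 90.4% of Panx-KD members (83.2% over all sequences). Most members in 1 list only were thus narrow and of low score, but not all of them: 21 Nxf2-KD and 6 Panx-KD members without a counterpart were 5 kb or wider. They were 7.98% of the 263 Nxf2-KD and 2.06% of the 291 Panx-KD members of that width. On the other sequences 5 of 180 Nxf2-KD and 18 of 225 Panx-KD peaks of that width had no counterpart.

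Chained by overlap, the members formed 1361 groups, of which 682 (50.1%) were pairs of 1 peak with 1 peak. In 112 groups several Nxf2-KD peaks matched 1 Panx-KD peak, in 114 groups 1 Nxf2-KD peak matched several Panx-KD peaks, and in 94 groups several matched several. Splitting was therefore about as frequent in either direction. On the other sequences pairs of 1 with 1 were a like share, 50.9% of 2578 groups, but each kind of split group was a smaller share. In the same order, the 3 kinds numbered 129, 108 and 69 there, or 5.004%, 4.19% and 2.68% of groups. On heterochromatin sequences the shares were 8.23%, 8.38% and 6.91%. At 3LHet:747360-756294, for example, 2 Nxf2-KD peaks covered 7943 bp and 6 Panx-KD peaks covered 8122 bp of the same 8935 bp. At 2LHet:245982-260903 the reverse was seen, with 5 Nxf2-KD peaks over 12656 bp and 2 Panx-KD peaks over 14836 bp.

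In the 682 pairs the edges of the peaks were a median of 95 bp apart (quartiles 32 and 300 bp), and 51.5% of the 1364 edges lay within 100 bp. The median width was 2091 bp in Nxf2-KD and 2271 bp in Panx-KD cells, with a median ratio of 0.980 within pairs (quartiles 0.872 and 1.06). The Nxf2-KD peak was the wider one in 269 pairs and the Panx-KD peak in 412, with 1 tie. Over the whole lists the order of the medians was the other way round, 2199 bp in Nxf2-KD and 2003 bp in Panx-KD cells. The pairs leave out the 241 Panx-KD and 118 Nxf2-KD members without a counterpart and all members of split groups.

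Widths agreed within 2-fold in 661 pairs (96.9%), and across pairs the Spearman coefficient was 0.92 for width and 0.83 for score. These coefficients are descriptions over places on the same sequences. Of the exceptions, 5 pairs were at least 2-fold wider in Nxf2-KD and 16 at least 2-fold wider in Panx-KD cells. By the difference in bp, the 3 largest toward Panx-KD and the 2 largest toward Nxf2-KD cells were on 2RHet. An Nxf2-KD peak of 687 bp at 2145307-2145993 lay at the end of a Panx-KD peak of 18448 bp at 2145188-2163635. An Nxf2-KD peak of 5238 bp at 907060-912297 shared its right edge, to within 113 bp, with a Panx-KD peak of 25094 bp at 887091-912184. In the other direction the differences were smaller: the pair with the largest one, at 779087-782008 in Nxf2-KD cells, measured 2922 bp against 1414 bp in Panx-KD cells. By fold, the largest toward Nxf2-KD cells was a pair on 2LHet, with 1898 bp against 647 bp.

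**Figure D4:**
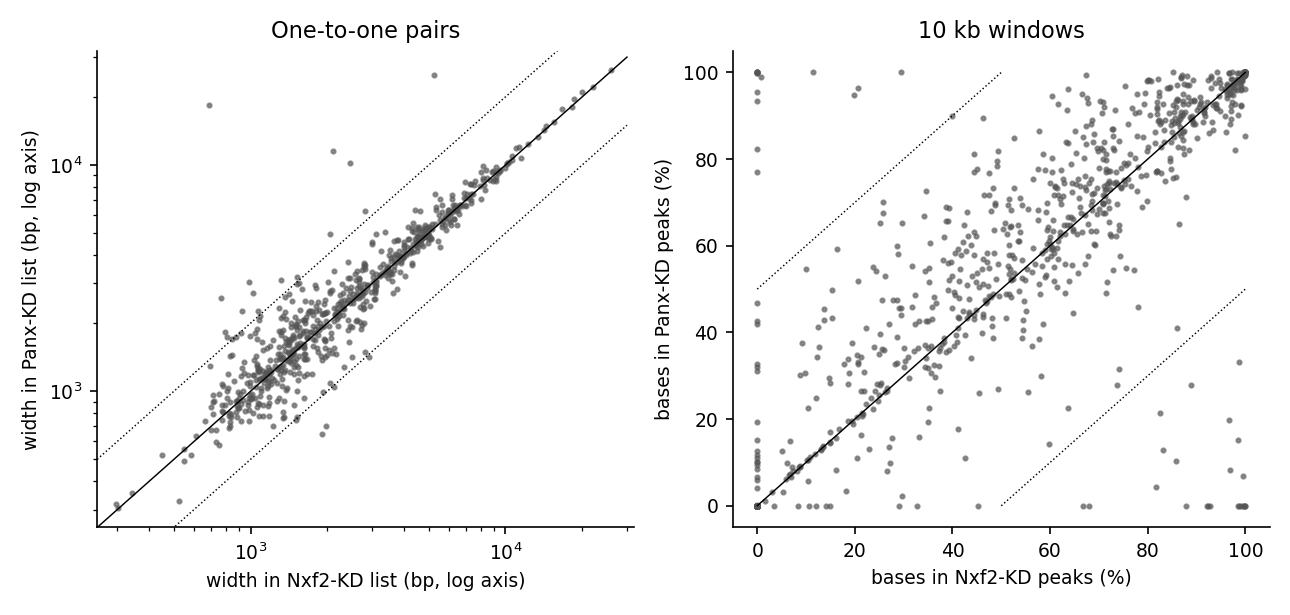
Left: width (bp, log axes) of the 682 one-to-one pairs in the Nxf2-KD and Panx-KD lists, with equality (solid) and 2-fold differences (dotted). Right: share of each of 925 windows of 10 kb that lay in Nxf2-KD and in Panx-KD peaks (%), with equality (solid) and differences of 50 percentage points (dotted). Most points follow the solid lines, and 39 windows lie beyond the dotted ones.

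In consecutive windows of 10 kb the covered share differed by at most 10 percentage points in 623 of 925 windows (67.4%). At least 50% was covered in both lists in 439 windows. A further 144 windows held no peak in either list, and these are counted among the 623. The median window was covered to 52.7% in Nxf2-KD and 57.9% in Panx-KD cells. A difference of over 50 points was found in 39 windows, of which 23 had the higher coverage in Nxf2-KD and 16 in Panx-KD cells. On 2RHet 6 windows were higher in Nxf2-KD and 11 in Panx-KD cells, on 3LHet 7 and 2, on 3RHet 8 and 3, and on XHet 2 and 0. One of the XHet windows is the last 1485 bp of its extent, 180001-181485, whose end is set by the Nxf2-KD peak that fills it. No window of 2LHet or YHet differed by that much. Among full windows the difference reached 100 points at 3LHet:1490001-1500000, wholly covered in Nxf2-KD cells and free of Panx-KD peaks. It reached 100 points the other way on 2RHet at 140001-150000, 150001-160000, 890001-900000 and 2150001-2160000, wholly covered in Panx-KD cells and free of Nxf2-KD peaks. With consecutive windows of 50 kb none differed by over 50 points. That grid can divide a differing stretch: 140001-150000 and 150001-160000 on 2RHet fall in different 50 kb windows. The count therefore sets no limit on the length of the differing stretches.

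Some members of high score had no counterpart. In the class of highest scores these were 17 of 346 Nxf2-KD members (4.91%) and 5 of 382 Panx-KD members (1.31%). On the other sequences they were 2 of 354 Nxf2-KD peaks (0.565%) and 9 of 423 Panx-KD peaks (2.13%). The Nxf2-KD peak at 2RHet:2236625-2249916 was 13292 bp wide with a score of 3100, shared by only 2 other Nxf2-KD members, and the nearest Panx-KD peaks ended 2491 bp before it and began 22557 bp after it. The Nxf2-KD peaks at 2RHet:1551467-1557548 (score 1229), 3RHet:2218516-2229209 (1224), 3RHet:2293483-2301197 (978) and 3RHet:2103208-2111724 (961) likewise overlapped no Panx-KD peak. In the Panx-KD list the highest-scoring such peaks were 2RHet:162563-167679 (score 2167), 3LHet:1591824-1602680 (1707), 3RHet:1993606-2000334 (1419), 3LHet:514259-517900 (1326) and 3RHet:540462-543533 (528). Beside the first of them lay the widest member of all, the 29443 bp Panx-KD peak at 2RHet:133084-162526, also without an Nxf2-KD counterpart. The flanks were not empty: within 20 kb on either side, peaks of the other list covered between 19.6% and 48.2% of the flanking bases of these 10 peaks.

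**Figure D5:**
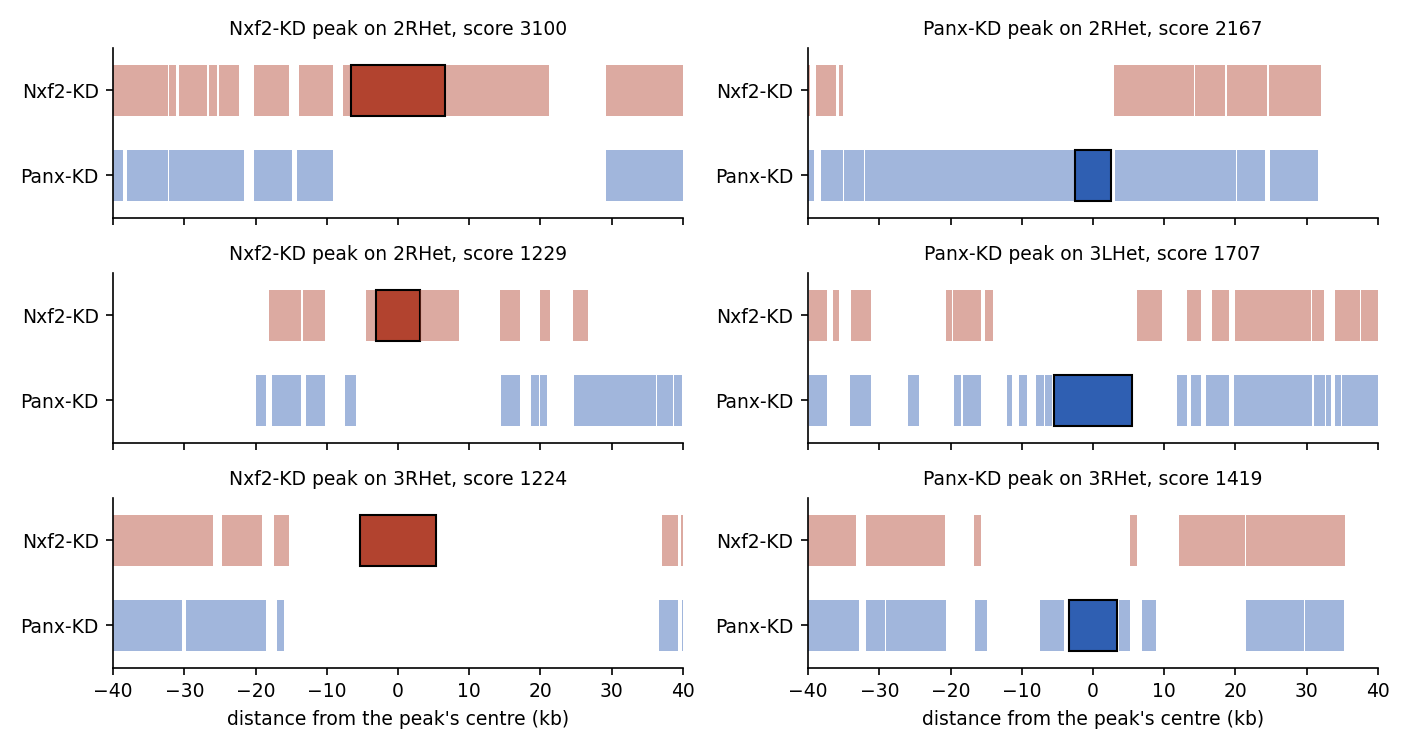
Peaks of the Nxf2-KD list (upper row of each panel) and the Panx-KD list (lower row) around the 3 highest-scoring members without a counterpart in the Nxf2-KD list (left) and in the Panx-KD list (right), by distance from the peak's centre in kb. The outlined peak is the one named. The other list is blank below or above each outlined peak, and in some panels beyond it: beside the Panx-KD peak of score 2167 the Nxf2-KD row is blank for 37.9 kb.

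Taken as gaps, 91 stretches of 10 kb or more had no Nxf2-KD peak and 80 had no Panx-KD peak, a cutoff set after the lists were seen. Most were gaps in both lists: 62 of the 91 and 61 of the 80 were covered to under 10% by the other list. The largest gap on 2RHet, for instance, ran from 2649759 to 2762204 in Nxf2-KD and from 2649815 to 2762174 in Panx-KD cells. Of the stretches without Nxf2-KD peaks, 7 (157 kb) were covered to at least 50% by Panx-KD peaks. Of those without Panx-KD peaks, 12 (262 kb) were covered to at least 50% by Nxf2-KD peaks. The longest were 2RHet:130083-168026, where 4 Panx-KD peaks filled 98.7% of a stretch of 37.9 kb without an Nxf2-KD peak, and 3LHet:1456268-1506693, where 2 Nxf2-KD peaks filled 50.6% of a stretch of 50.4 kb without a Panx-KD peak. At 2RHet:879077-907059 a stretch of 28.0 kb without an Nxf2-KD peak was filled to 99.97% by 2 Panx-KD peaks. With merged lists it was not tested whether these stretches differ in each replicate.

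The sex-chromosome sequences held few members. XHet had 26 Nxf2-KD and 24 Panx-KD peaks, of which 22 (84.6%) and 20 (83.3%) overlapped the other list. Over all sequences 89.0% of Nxf2-KD and 76.7% of Panx-KD peaks did so. A window of the same width overlapped at 47.5% and 49.9% of positions on XHet. Its highest-scoring peaks were 128793-132808 in Nxf2-KD cells (score 870) and 155854-161560 in Panx-KD cells (score 1182). YHet had 16 peaks in each list, of which 15 Nxf2-KD and 14 Panx-KD peaks overlapped. A window of the same width at any position would overlap at 7.64% and 7.55% of positions. Those shares count every position, although 23 of the 33 windows of 10 kb on YHet held no peak in either list. Whether reads could be assigned at all these positions was not tested, so no agreement of the mark is read from the difference. The YHet peaks were narrow, with a median of 652 bp in Nxf2-KD and 688 bp in Panx-KD cells. The highest-scoring one was the same in both lists, at 71717-73869 in Nxf2-KD cells (score 752) and 71750-73914 in Panx-KD cells (score 918). The line derives from an ovary, a female tissue that carries no Y chromosome, and the origin of the reads assigned to YHet was not tested.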

How the data were processed

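H3K9me3 chromatin immunoprecipitation samples (2 per knockdown, with 1 input each) are represented by 1 peak list per knockdown. Each deposited list gives position and a peak score, and its peaks carry MACS in their names. The submitters' processing notes name dm3, cutadapt, Bowtie 1.0 and MACS 1.4.2 with no role or order; per the file names the lists are merged over replicates. The treatment of reads that map to several repeats is not given in the sources used here, and it can decide which repeat copies carry a peak. Starts were read as 0-based and are printed as 1-based. The tables of element counts hold no positions and were not used.

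Overlap, coverage, gaps and windows were computed with Python 3.11.15, NumPy 2.4.6 and SciPy 1.17.1, and the functions were checked on simulated intervals. The share of positions was counted exactly over every start on the same sequence. Linear models, replicate tests and random draws were not used. Peaks named are, per list, the 5 highest-scoring, 5 widest and the highest-scoring of each sequence, the 5 highest-scoring without a counterpart, the largest width differences of pairs, and the longest clusters, chained groups and windows; the text gives part of these. Long gaps and the chained groups named were chosen after their values were seen. The members and rules were chosen with earlier results of these data known.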

Additional observations from a re-analysis of the deposited data

How the results depend on the processing

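No paired analysis was possible because each knockdown has 1 peak list merged over its replicates, and for the same reason no replicate could be left out. Of 66 values recomputed, 28 stayed within the 95% interval or within 1.5-fold and 38 moved. Among the 28, the peak numbers and the Nxf2-KD coverage with 1384 peaks in both lists were set by that rule and could not move. Intervals of coverage treat bases as independent and are very narrow, so small shifts count as moves there. With scores of at least 100, median width was 3073 bp in Nxf2-KD and 2818 bp in Panx-KD cells, median score 267 and 308, coverage 43.3% and 47.2%, bases in both lists 70.7% of those in either, overlap of Panx-KD members 81.4% and pairs of 1 with 1 53.9% of groups. With peaks joined at gaps of at most 1000 bp there were 688 Nxf2-KD and 625 Panx-KD peaks, so the order of the lists turned, with median width 4508 and 4540 bp, median score 252 and 319, coverage 51.8% and 55.5%, overlap 93.6% and 86.2%, and 76.2% of bases in both. With 1384 peaks in both lists, overlap was 89.2% for Nxf2-KD and 86.5% for Panx-KD members, and Panx-KD coverage 51.2%. For the score cutoff, the joined peaks and the lists of equal size, overlap over all sequences and shares of positions were not computed. Joined peaks are wider, and wider windows overlap the other list at more positions, so their higher overlap is not read as better agreement. Requiring 50% of the peak gave 89.5% and 79.3%, and 50% reciprocal overlap gave 70.6% and 64.9%, against 71.5% and 62.2% over all sequences. Counting gaps under 500 bp as overlap, added after the data were seen, gave 94.4% and 90.4%. Without YHet coverage was 51.0% and 54.2%. Without 2RHet it was 49.8% and 52.1%, with 918 Nxf2-KD peaks and 74.8% of bases in both. Clusters at gaps of at most 5000 bp numbered 193 and 166, and 0 consecutive windows of 50 kb differed by over 50 points, on a grid that can divide a differing stretch. In the settings where coverage was recomputed it was lower in Nxf2-KD than in Panx-KD cells. The depth of the lists is unknown, so a missing weak peak is not shown to be a missing mark.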
